A study of Rattus norvegicus with 20 samples.

Results

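The nuclear genes for the subunits of the mitochondrial respiratory chain were followed in rat lung by RNA sequencing. Members were taken by gene symbol alone: Nduf with a, b, c, s or v and a number for complex I, Sdha to Sdhd for complex II, Uqcr for complex III, Cox4 to Cox8 for complex IV and Atp5 for complex V. This gave 86 of the 19060 genes in the table, 40 of complex I, 4 of complex II, 8 of complex III, 16 of complex IV and 18 of complex V. Ndufa4 and Ndufa4l2 were kept under complex I because of their symbols, although the Ndufa4 protein is known as a part of complex IV.

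The study crossed an abdominal operation with nerve stimulation and had 20 libraries, 5 in each of 4 groups. CLP+VNS rats had caecal ligation and puncture (CLP), where gut contents leak through the pierced caecum and sepsis with acute lung injury follows, together with stimulation of the right cervical vagus (VNS). CLP rats had the ligation and puncture alone. Sham+VNS rats had a laparotomy in which the caecum was only handled, with the same nerve stimulation, and Sham rats had that laparotomy without stimulation. The labels used here give no strain, age, sex, stimulation setting or time of tissue collection, and they do not say that replicates came from separate animals, so p-values measure the spread between these samples.

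The respiratory chain sits in the inner mitochondrial membrane. Complex I takes electrons from NADH and complex II takes them from succinate, coenzyme Q carries them to complex III, cytochrome c carries them on to complex IV, which reduces oxygen, and complex V uses the proton gradient to make ATP. Most subunits are encoded in the nucleus and a smaller set in mitochondrial DNA, and a few positions of complex IV are filled by tissue-specific isoforms. Among the factors known to act on promoters of the nuclear subunit genes in mammals are NRF1, the ETS-type factor GABP and YY1, with the coactivators of the Ppargc1 family.

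Total counts ran from 13729654 to 14453188 per library. Of the 86 members 81 had enough counts to be tested and 5 did not, namely Cox6a2, the heart and skeletal muscle isoform of Cox6a1, Atp5hl1, Ndufa13-ps1, Ndufb4l1-ps1 and the gene listed as Ndufs6. The last of these carries an identifier that the RefSeq table of assembly GRCr8 names as the pseudogene Ndufs6-ps1, and it averaged 0.250 counts per library, so the level of a functional Ndufs6 was not analysed here. Cox7a1, Cox7b2 and Cox8c and the mitochondrially encoded subunits were not analysed here either. The surfactant, alveolar, airway and endothelial genes that mark lung (Sftpc, Sftpb, Ager, Scgb1a1, Cldn5 and Pecam1) summed to 18250 to 31587 CPM (counts scaled to the library total). The lowest sum was that of Sham replicate 1, and every other library had at least 25683 CPM.

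A pair of libraries stood apart by genes of tissue outside the lung parenchyma. The brown fat uncoupling protein Ucp1 was at 111.6 CPM in Sham+VNS replicate 4 and 67.6 CPM in Sham replicate 1, against at most 0.0746 CPM in the other libraries. All 6 adipose markers (Adipoq, Plin1, Cfd, Lep, Ucp1 and Cidea) had counts in Sham replicate 1 and summed there to 831 CPM. Their sum was 186 CPM in Sham+VNS replicate 4 and 218 CPM in Sham+VNS replicate 2, where Ucp1 had no count, and 10.2 to 30.1 CPM in the other 17 libraries. The 8 heart muscle markers, among them the troponins Tnni3 and Tnnt2, summed to 186 CPM in Sham replicate 1, 63.4 CPM in Sham replicate 5, 34.2 CPM in CLP+VNS replicate 3 and at most 17.1 CPM elsewhere. Brown fat and heart muscle are tissues rich in respiratory chain subunits. Results that rest on Sham replicate 1 or Sham+VNS replicate 4 are therefore given with and without them.

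Compared per transcript length, in TPM, which are scaled for length and depth, most subunits were abundant messages. In Sham the median member stood at 142 TPM in complex I, 136 TPM in complex II, 203 TPM in complex III, 361 TPM in complex IV and 364 TPM in complex V. The highest was Atp5f1e, the epsilon subunit of the ATP synthase head, at 859 ± 41.7 TPM in Sham (SD, n = 5), next to Cox4i1, the widespread isoform of cytochrome c oxidase subunit 4, at 818 ± 112 TPM. These levels lay within each other's spread. The 86 members summed to 18529 ± 508 TPM in CLP+VNS, 18493 ± 332 TPM in CLP, 21011 ± 1262 TPM in Sham+VNS and 22106 ± 2268 TPM in Sham, which is 1.85%, 1.85%, 2.10% and 2.21% of all TPM. The sums ran from 17833 to 19264 TPM in CLP+VNS and from 18171 to 18956 TPM in CLP, against 19797 to 22982 TPM in Sham+VNS and 19493 to 25739 TPM in Sham. The libraries after ligation and puncture thus lay below all sham-operated ones, and the highest sum belonged to Sham replicate 1. In bulk tissue, fewer cells with a high level and less RNA per cell cannot be told apart.

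**Figure D1:**
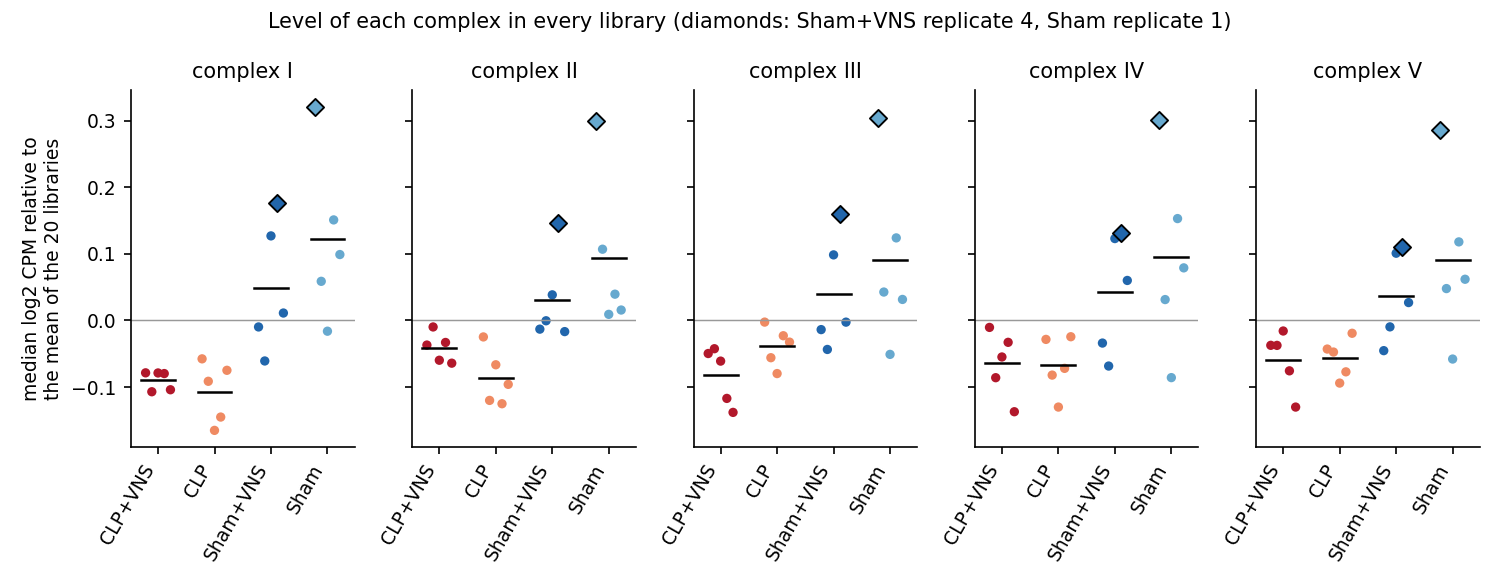
Level of each complex in every library, as the median over its tested members of log2 CPM (y axis) relative to that member's mean over the 20 libraries, by group (x axis). Points are libraries, lines are group means, and diamonds mark Sham+VNS replicate 4 and Sham replicate 1, which has the highest value in all 5 complexes (0.286 to 0.321).

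On the CPM scale, shown complex by complex in the plot of levels by library, the libraries overlapped more. Over all 81 tested members the median log2 deviation from the 20-library mean lay between -0.12 and -0.039 in CLP+VNS libraries and between -0.111 and -0.0471 in CLP libraries. In Sham+VNS it lay between -0.0406 and 0.139 and in Sham between -0.0321 and 0.311. The highest value of Sham belonged to replicate 1 and that of Sham+VNS to replicate 4, and the lowest of Sham, -0.0321, was that of replicate 3. Sham replicate 3 overlapped the range of the CLP libraries in complexes III, IV and V, and lay above all of them in complexes I and II. The ranges of CLP+VNS and Sham+VNS overlapped in complexes II, III, IV and V and, by little, over all members, and did not overlap in complex I.

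The comparison of CLP with Sham asked what ligation and puncture did without stimulation. Respiratory chain messages were lower after the operation, by modest amounts and in all 5 complexes: 33 of the 81 tested members fell and none rose, and 75 of 81 had a negative log2 fold change. The median change was -0.17 on the log2 scale, a fall of 11.3%, against -0.0134 over all 14794 genes tested. The edgeR quasi-likelihood test, with Benjamini-Hochberg adjustment over all tested genes and a call at an adjusted p below 0.05, called 40.3% of all genes in this comparison, and called 20.5% lower, beside 40.7% of the members. The CLP and Sham libraries did not overlap, with CLP lower, for 17 of the 81 tested members, beside 12.7% of all genes. Without Sham replicate 1, 24 members fell, or 29.6% of them beside 19.0% of all genes, and the median was -0.12. In that fit 1 member was called higher. The shares called lower in complexes III, IV and V were then not far from that of all genes. The share of complex I stayed above it. Without Sham replicate 3 the count of called members was 47.

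**Figure D2:**
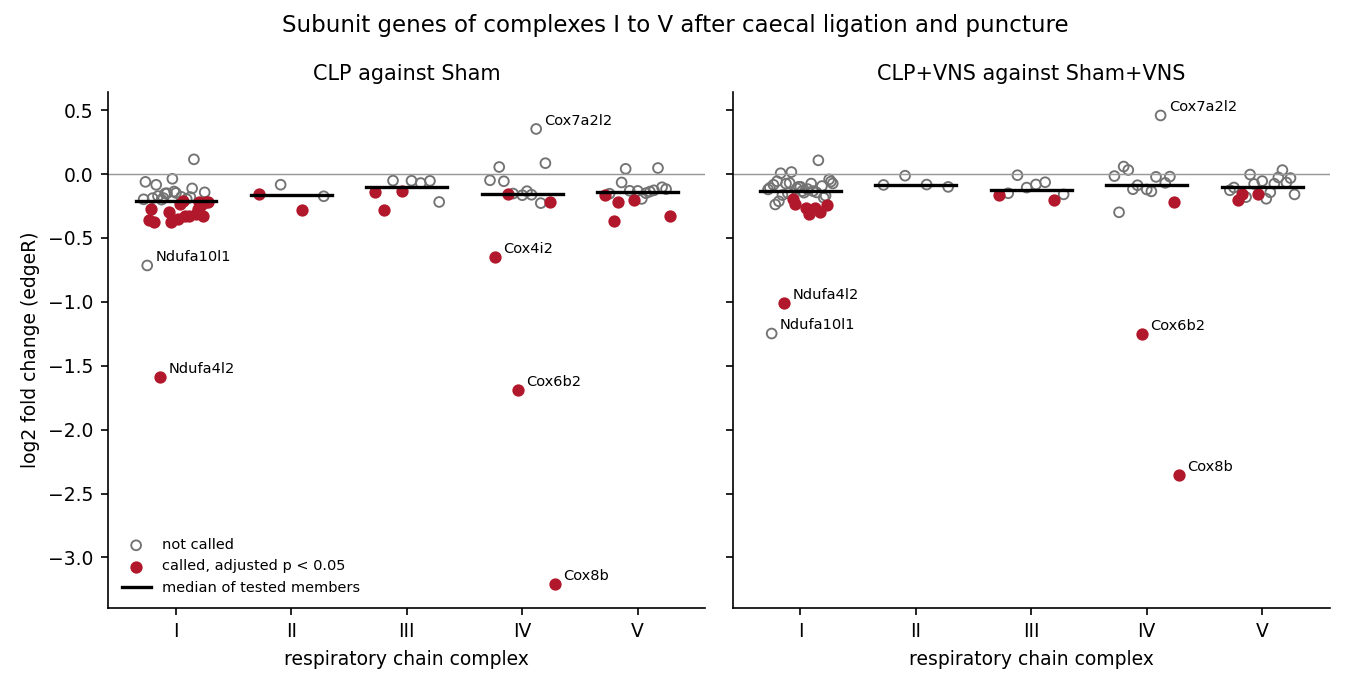
Log2 fold change (y axis, edgeR) of each tested member by complex (x axis), CLP against Sham on the left and CLP+VNS against Sham+VNS on the right. Filled points were called at an adjusted p below 0.05 and black lines are medians per complex. Called members lie below 0 in both panels, 33 on the left and 16 on the right.

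Complex I had the largest share of lower members among the larger complexes, 18 of 37, with a median of -0.21 and 36 of 37 changes below 0. Without Sham replicate 1, complex I lost the calls of Ndufa12, Ndufb5, Ndufb7, Ndufc1 and Ndufv2. Of its 7 core subunits, those that carry the flavin and iron-sulfur clusters, 4 fell: Ndufs3, Ndufs8, Ndufs7 and Ndufv2. Ndufs3 stood at 25.2, 26.3, 20.8, 24.4 and 22.2 CPM in CLP, against 33.0, 27.3, 27.2, 30.7 and 29.5 CPM in Sham. All CLP libraries lay below all Sham libraries. Its log2 change was -0.31 ± 0.06 (SE; adjusted p = 0.000711, edgeR). Ndufs8, which carries iron-sulfur clusters next to the coenzyme Q site, stood at 20.7 to 23.1 CPM in CLP, against 24.6 to 32.5 CPM in Sham, again without overlap (-0.33 ± 0.07, adjusted p = 0.00108, edgeR). Ndufs7 changed by -0.24 ± 0.07. Ndufv2 changed by -0.22 ± 0.07, without a call when Sham replicate 1 was left out (adjusted p = 0.0512, edgeR). The NADH-binding subunit Ndufv1 (-0.14 ± 0.06) and the largest iron-sulfur subunit Ndufs1 (-0.11 ± 0.07) were not called.

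The accessory subunits of complex I, which surround the core, held the largest falls. Ndufb10, of the membrane arm, stood at 41.4, 39.4, 39.3, 37.7 and 42.5 CPM in CLP, against 57.5, 48.6, 47.1, 56.1 and 50.8 CPM in Sham. The groups did not overlap, and the log2 change was -0.38 ± 0.07 (adjusted p = 0.000158, edgeR; -0.34 without Sham replicate 1). Ndufa11, also of the membrane arm, averaged 23.1 ± 1.51 CPM in CLP and 29.7 ± 3.07 CPM in Sham (SD, n = 5 each), without overlap (-0.36 ± 0.08). Ndufa2, of the matrix arm, changed by -0.37 ± 0.09 with a small overlap between its groups. Ndufb8, Ndufa9, Ndufs4, Ndufv3 and Ndufb5 were also without overlap between the groups. By symbol, 5 of 10 tested Ndufb genes, 5 of 15 Ndufa genes and 1 of 2 Ndufc genes fell, with medians of -0.20, -0.20 and -0.26.

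In complex II, the enzyme shared with the tricarboxylic acid cycle, 2 of 4 subunits fell. Sdhc, a membrane anchor with a part of the heme site, stood at 64.4, 60.5, 60.4, 61.0 and 61.0 CPM in CLP, against 81.9, 72.02, 68.3, 78.8 and 72.1 CPM in Sham. The groups did not overlap (-0.28 ± 0.05, adjusted p = 0.000166, edgeR). The flavoprotein Sdha changed by -0.16 ± 0.05 with overlapping groups (adjusted p = 0.0178, edgeR; 0.0479 without Sham replicate 1). The other anchor, Sdhd (-0.17 ± 0.07), and the iron-sulfur subunit Sdhb (-0.08 ± 0.08) were not called.

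In complex III 3 of 8 members fell, with a median of -0.10 and all 8 changes below 0. Without Sham replicate 1, 2 fell, the median was -0.0632 and 5 of 8 changes were below 0. Uqcr10, a small membrane subunit and the most abundant of the complex by TPM, stood at 41.6, 43.9, 41.1, 45.1 and 44.8 CPM in CLP, against 45.2, 48.7, 46.3, 48.1 and 49.9 CPM in Sham, without overlap but by little (-0.14 ± 0.05, adjusted p = 0.0293, edgeR). Uqcr11 changed by -0.28 ± 0.09 and the core protein Uqcrc1 by -0.14 ± 0.05. The other core protein Uqcrc2 (-0.05 ± 0.07) and the Rieske iron-sulfur protein Uqcrfs1 (-0.07 ± 0.06) were not called.

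In complex V 5 of 17 tested members fell, with a median of -0.14, and 3 of them belong to the catalytic F1 head. Without Sham replicate 1, 4 fell and the median was -0.0813. Atp5f1c, the central stalk subunit gamma that turns inside the head, stood at 94.4, 88.6, 92.8, 90.9 and 91.5 CPM in CLP, against 134, 113, 111, 116 and 115 CPM in Sham. The groups lay far apart, and the log2 change of -0.36 ± 0.06 had the second lowest adjusted p among members (5.30e-05, edgeR; 0.000102 without Sham replicate 1). Atp5f1d (delta) changed by -0.22 ± 0.05 and the catalytic head's alpha subunit Atp5f1a by -0.16 ± 0.05, while the beta subunit Atp5f1b was not called (-0.15 ± 0.07, adjusted p = 0.0721, edgeR).

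Outside the head, Atp5po, the peripheral stalk subunit OSCP, changed by -0.33 ± 0.07. The c-ring is built from 1 mature protein that 3 genes encode. Of these Atp5mc2 fell (-0.21 ± 0.05, adjusted p = 0.00413, edgeR), and Atp5mc3 (-0.13 ± 0.06) and Atp5mc1 (-0.13 ± 0.07) were not called. At 376 ± 17.4 TPM in CLP and 465 ± 23.8 TPM in Sham, Atp5mc2 was also the most abundant of the 3. The inhibitor of ATP hydrolysis, Atp5if1, stood at 37.8 to 47.2 CPM in CLP, against 39.4 to 43.5 CPM in Sham (0.04 ± 0.06, not called).

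**Figure D3:**
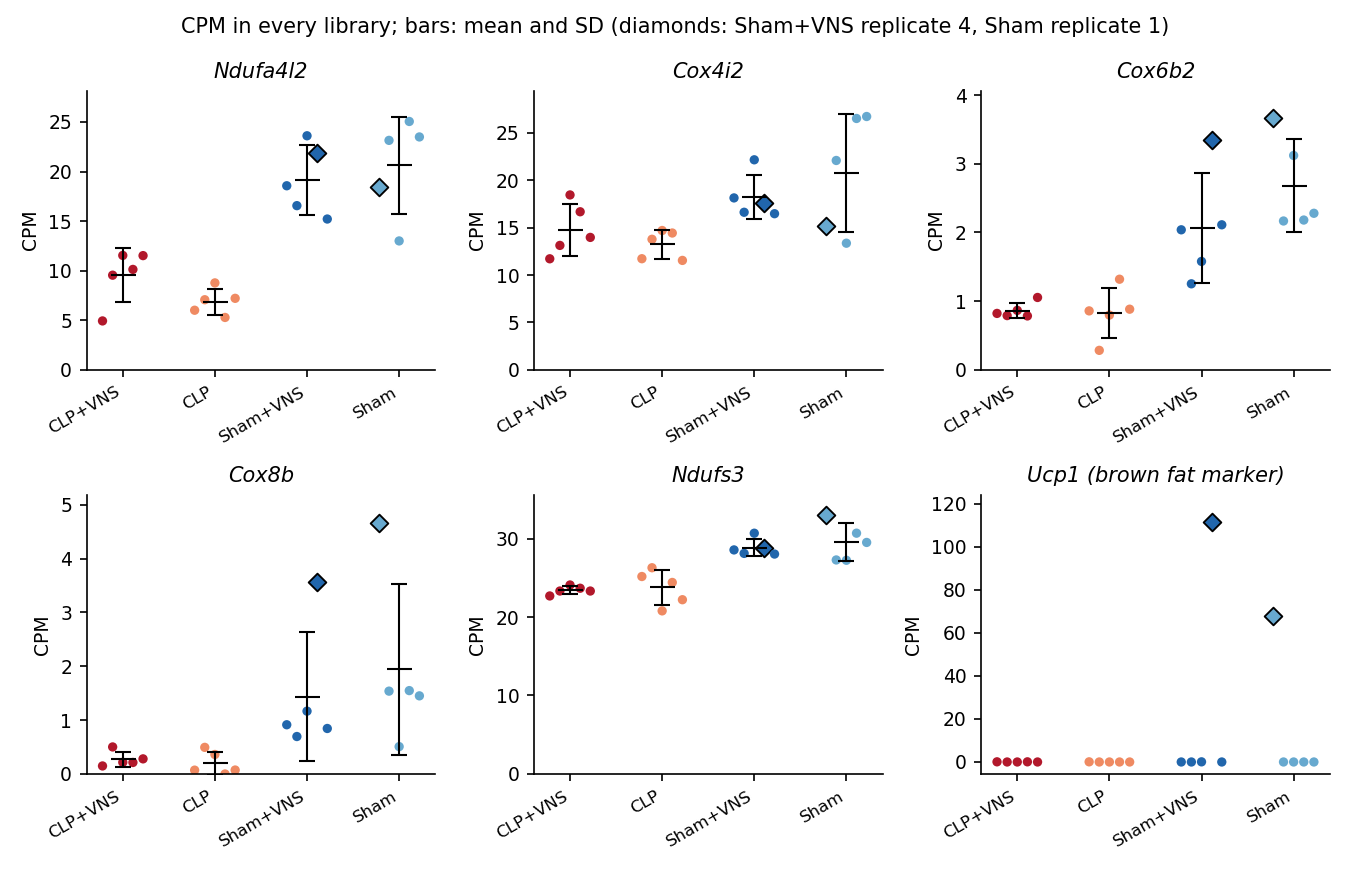
CPM (y axis) of Ndufa4l2, Cox4i2, Cox6b2, Cox8b and Ndufs3 and of the brown fat marker Ucp1 in every library by group (x axis), with mean and SD. Diamonds mark Sham+VNS replicate 4 and Sham replicate 1, which hold the highest Cox8b values (3.57 and 4.66 CPM) and the only Ucp1 values above 0.0746 CPM.

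In complex IV 5 of 15 tested members fell, with a median of -0.15, and the widespread isoforms and the rarer ones differed in size. Without Sham replicate 1 the rarer Cox8b, Cox6b2 and Cox4i2 kept their calls, and the widespread Cox8a and Cox6a1 lost theirs. Cox8b, an isoform of heart, skeletal muscle and brown fat in rodents, stood at 0.0715, 0.494, 0.362, 0 and 0.0735 CPM in CLP, against 4.66, 1.54, 0.508, 1.55 and 1.45 CPM in Sham. The highest value was that of Sham replicate 1, the library with Ucp1 and heart muscle genes, and the lowest Sham value was close to the highest CLP value. The log2 change was -3.21 ± 0.70 (adjusted p = 0.00116, edgeR) and -2.60 without Sham replicate 1 (adjusted p = 0.00418, edgeR). Of the tested heart muscle markers 4 of 5 fell in the same comparison and of the tested adipose markers 2 of 3. Their part in the Cox8b result was not tested. Cox6a2, below the count filter, was at 3.03 CPM in Sham replicate 1 and at most 0.706 CPM in every other library.

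Cox6b2, known as the testis isoform of Cox6b1, stood at 0.858, 0.283, 0.797, 1.32 and 0.882 CPM in CLP, against 3.67, 2.17, 3.12, 2.18 and 2.28 CPM in Sham. The groups did not overlap (-1.69 ± 0.30, adjusted p = 0.000199, edgeR; -1.55 without Sham replicate 1). Testis markers were at or near 0: of Prm1, Tnp1 and Odf1 only Odf1 was in the table, at no more than 0.0691 CPM in any library.

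Ndufa4l2 and Cox4i2, which are known from mice as genes of pericytes and as isoforms used at low oxygen, fell with different degrees of overlap. Ndufa4l2 stood at 6.00, 7.06, 8.76, 5.28 and 7.21 CPM in CLP, against 18.4, 23.1, 13.0, 25.1 and 23.5 CPM in Sham. The groups were well apart, and the log2 change of -1.59 ± 0.21 had the lowest adjusted p among members (1.23e-05, edgeR; 2.44e-05 without Sham replicate 1). Cox4i2 stood at 11.7, 13.8, 14.7, 14.4 and 11.5 CPM in CLP, against 15.2, 22.1, 13.4, 26.5 and 26.7 CPM in Sham. Only Sham replicate 3 lay inside the CLP range (-0.65 ± 0.17, adjusted p = 0.00559, edgeR). Of the 8 pericyte and smooth muscle markers 6 fell and none rose in this comparison, with a median of -0.53. Their sum was 356 to 484 CPM in CLP and 522 to 652 CPM in Sham, and their part in the Ndufa4l2 and Cox4i2 results was not tested.

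The widespread isoforms moved little. Cox4i1 was at 202 to 223 CPM in CLP and 199 to 261 CPM in Sham (-0.05 ± 0.06), and Ndufa4 changed by -0.17 ± 0.09, neither called. Cox8a (-0.22 ± 0.08, adjusted p = 0.0296, edgeR) and Cox6a1 (-0.15 ± 0.06, adjusted p = 0.0346, edgeR) fell, and Cox6b1 (-0.15 ± 0.06), Cox7a2 (-0.13 ± 0.05), Cox7a2l (-0.16 ± 0.07) and Cox7b (-0.23 ± 0.10) were not called. Per length the widespread forms were far above the rare ones: Cox4i1 was at 740 ± 27.3 TPM in CLP and 818 ± 112 TPM in Sham, against 45.8 ± 5.59 TPM and 76.2 ± 22.4 TPM for Cox4i2 in CLP and in Sham. The subunits Cox5a (0.05 ± 0.09) and Cox5b (-0.06 ± 0.07), which pack around the catalytic core, were not called.

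Of the 33 calls in CLP against Sham, 23 held whichever of the 20 libraries was left out. Of these 23, 21 also held under every other setting, the fit without both libraries with Ucp1 aside. In that fit Uqcr11, among these 21, was not called (adjusted p = 0.0504, edgeR). Without Sham replicate 1 the calls of 9 members were lost, namely Ndufa12, Ndufb5, Ndufb7, Ndufc1, Ndufv2, Uqcrc1, Cox6a1, Cox8a and Atp5f1a. Of these, Ndufc1 was called in 6 and Ndufa12 in 7 of the 20 fits without 1 library, and the calls were lost without libraries of all 4 groups. Atp5f1a was also lost without Sham replicate 4, Cox8a without CLP replicates 4 or 5 or Sham replicates 4 or 5, Cox6a1 without CLP replicates 4, 5 or 6 or Sham replicates 2 or 4, and Ndufb5 without CLP replicates 1 or 3. Uqcrc1 was also lost without CLP replicates 1, 4, 5 or 6, Sham replicate 4 or Sham+VNS replicate 5, and Ndufb7 without CLP replicates 1, 3, 4 or 6 or Sham replicates 2 or 4. Uqcr10 kept its call without Sham replicate 1 but not without CLP replicates 1 or 4 or Sham replicates 2, 4 or 5.

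**Figure D4:**
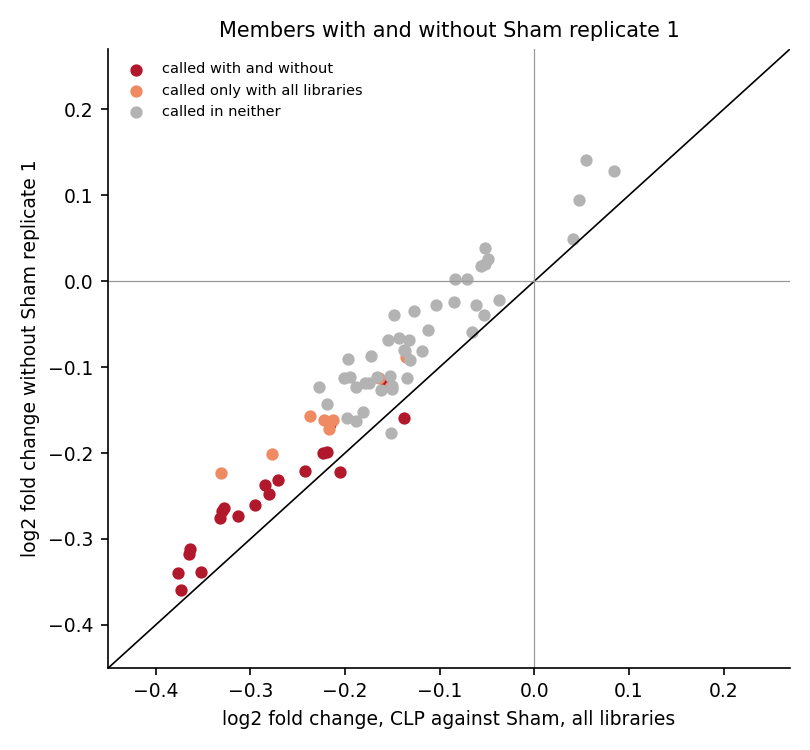
Log2 fold change of the members reported here in CLP against Sham with all libraries (x axis) and without Sham replicate 1 (y axis), coloured by call, with the line of equality. The plot covers changes from -0.45 to 0.27, so the largest ones (Cox8b, Cox6b2, Ndufa4l2, Ndufa10l1, Cox4i2 and Cox7a2l2) lie outside it. Most points lie above the line, and the median over all members is -0.17 with and -0.12 without that library.

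Genes with close copies are uncertain, because the sources used here do not say how reads matching several copies were counted. Ndufa10l1, a copy of Ndufa10, was on or off by library, from 0 to 9.54 CPM in CLP and from 0 to 6.69 CPM in Sham (-0.72 ± 1.31, not called). Cox7a2l2, a copy of Cox7a2l, changed by 0.35 ± 0.49 and was not called.

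Motif letters around the start, before or after it, were counted in members as a description, with no test. RefSeq's promoter table for assembly GRCr8 held 73 of the 86 members, each as 250 bases before to 50 bases after the start. An NRF1 motif (GCGCA, any base, GCGC, on either strand) was in 17.8% of members' promoters, against 6.09% of 19005 protein-coding promoters of that length. It was in 10 of 30 members called in CLP against Sham and 3 of 41 tested members that were not called. A YY1 motif (AAGATGGC, or GCCATCTT) was in 20.5% of members, against 3.92% of all promoters, and in 10 of 30 called and 5 of 41 uncalled members. An ETS motif (CCGGAAG, or CTTCCGG) was in 28.8% of members, against 11.2% of all, and in 5 of 30 called and 16 of 41 uncalled members. No match of one motif overlapped a match of another in these promoters.

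The 60 bases around an NRF1 match are shown for 5 members that fell in CLP against Sham, from complexes I, II, III and V, to let the shared letters be seen in different surroundings. Sequences run 5′ to 3′ on the gene's strand and capitals mark the first match in the promoter. Ndufa11 lies at chr9:1637492-1637551 (plus strand), Sdha at chr1:30764439-30764498 (plus), Uqcrc1 at chr8:118468134-118468193 (plus), Atp5mc2 at chr7:135678240-135678299 (minus) and Atp5po at chr11:44657508-44657567 (minus), all in GRCr8. The marked matches begin 97, 89, 64, 56 and 59 bases before the start in that order. In Ndufa11 another match overlaps the marked one and begins 91 bases before the start. Sdha has further matches outside the bases shown, beginning 46 bases and 1 base before the start.
Ndufa11: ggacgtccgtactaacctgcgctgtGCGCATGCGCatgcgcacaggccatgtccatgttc
Sdha: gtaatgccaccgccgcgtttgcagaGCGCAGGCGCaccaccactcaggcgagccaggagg
Uqcrc1: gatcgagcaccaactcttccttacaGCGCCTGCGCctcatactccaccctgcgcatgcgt
Atp5mc2: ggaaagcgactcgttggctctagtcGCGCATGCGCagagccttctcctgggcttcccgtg
Atp5po: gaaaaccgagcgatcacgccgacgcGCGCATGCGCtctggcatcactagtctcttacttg

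The genes of the factors themselves changed less evenly. Of 18 regulators of mitochondrial biogenesis 5 rose and 3 fell in CLP against Sham. The coactivators Ppargc1b (-0.74 ± 0.25, adjusted p = 0.0222, edgeR; not called without CLP replicate 3), Ppargc1a (-0.41 ± 0.12, adjusted p = 0.00860, edgeR) and Perm1 (-0.65 ± 0.24) fell, and Perm1 lost its call without Sham replicates 1 or 5 or CLP replicates 1, 4 or 5. The related coactivator Pprc1 (0.29 ± 0.10) and Gabpb1, a GABP subunit (0.24 ± 0.08), rose but were not called without Sham replicate 1, without Sham replicate 5 or without CLP replicate 5, Gabpb1 also not without CLP replicate 3. The receptor Esrra rose (0.25 ± 0.06, adjusted p = 0.00351, edgeR). Nrf1 (-0.06 ± 0.04), Gabpa (-0.06 ± 0.05), Yy1 (0.10 ± 0.06) and Tfam, the packaging factor of mitochondrial DNA (0.04 ± 0.07), were not called.

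Assembly factors of complexes I and IV were called lower at shares not far from the 20.5% of all genes. In CLP against Sham 5 of 17 complex I assembly factors fell and none rose, with a median of -0.22, among them Tmem126a (-0.32 ± 0.09), Ndufaf3 (-0.27 ± 0.08) and Acad9 (-0.26 ± 0.06). Of 24 for complex IV 6 fell, with Coa6 (-0.50 ± 0.12), Coa8 (-0.28 ± 0.08) and Coa3 (-0.25 ± 0.09) lowest, Coa3 lost without any of 7 CLP or Sham libraries. Of 5 for complex V 3 fell, Atpaf1 (-0.37 ± 0.07, adjusted p = 0.000487, edgeR), Tmem70 (-0.36 ± 0.07) and Tmem242 (-0.25 ± 0.08, lost without CLP replicate 5 or Sham replicate 4). None of 3 factors of complex II and of 6 of complex III was called.

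Mobile carriers and neighbouring enzymes moved in both directions. Among 16 other chain components the ADP/ATP carrier Slc25a5 (0.29 ± 0.04, adjusted p = 1.15e-05, edgeR) and the sulfide oxidase Sqor (0.34 ± 0.08) rose. The muscle-type ADP/ATP carrier Slc25a4 (-0.21 ± 0.07, and -0.12 without Sham replicate 1), the proton-driven transhydrogenase Nnt (-0.36 ± 0.09) and Aifm2 (-0.51 ± 0.19) fell, Aifm2 with -0.25 and no call without Sham replicate 1, and no call without Sham replicate 4 or CLP replicates 1, 4, 5 or 6. The complex III subunit cytochrome c1, Cyc1 (-0.16 ± 0.07), the complex I acyl carrier Ndufab1 (-0.14 ± 0.09) and cytochrome c, Cycs (0.20 ± 0.17), which the symbol rule leaves out, were not called, and Cycs was at 0.45 without Sham replicate 1 (adjusted p = 0.00525, edgeR). Of 13 coenzyme Q genes Coq8b (0.67 ± 0.10) and Coq10b (0.45 ± 0.12) rose, and Pdss2 (-0.55 ± 0.08) and Coq7 (-0.39 ± 0.10) fell.

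The other mitochondrial lists showed no one-sided fall. Of 18 tricarboxylic acid cycle and pyruvate dehydrogenase genes 5 rose, with Pdha1 (0.38 ± 0.08), Pdhx (0.28 ± 0.11) and Dld (0.21 ± 0.06) highest, and 3 fell, among them Idh2 (-0.29 ± 0.08) and Pdhb (-0.19 ± 0.06). Pdhb was not called without Sham replicate 1, nor Pdhx without CLP replicates 4 or 6 or Sham replicates 2, 3, 4 or 5. Of 21 import genes 1 rose (Tomm70, 0.13 ± 0.05) and of 13 cristae genes Opa1 rose (0.18 ± 0.06) and Apoo fell (-0.27 ± 0.10). Tomm70 was lost without CLP replicates 1, 4, 5 or 6 or Sham replicates 4 or 5, Apoo without CLP replicates 1, 3 or 4 or Sham replicates 1, 2 or 4, and Opa1 without CLP replicate 6 or Sham replicates 3 or 5. Of 12 hypoxia response genes 4 rose and 1 fell, with Bnip3 (0.79 ± 0.21), the glucose transporter Slc2a1 (0.61 ± 0.08) and Ldha (0.29 ± 0.08) higher and the oxygen sensor Egln1 lower (-0.25 ± 0.05).

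**Figure D5:**
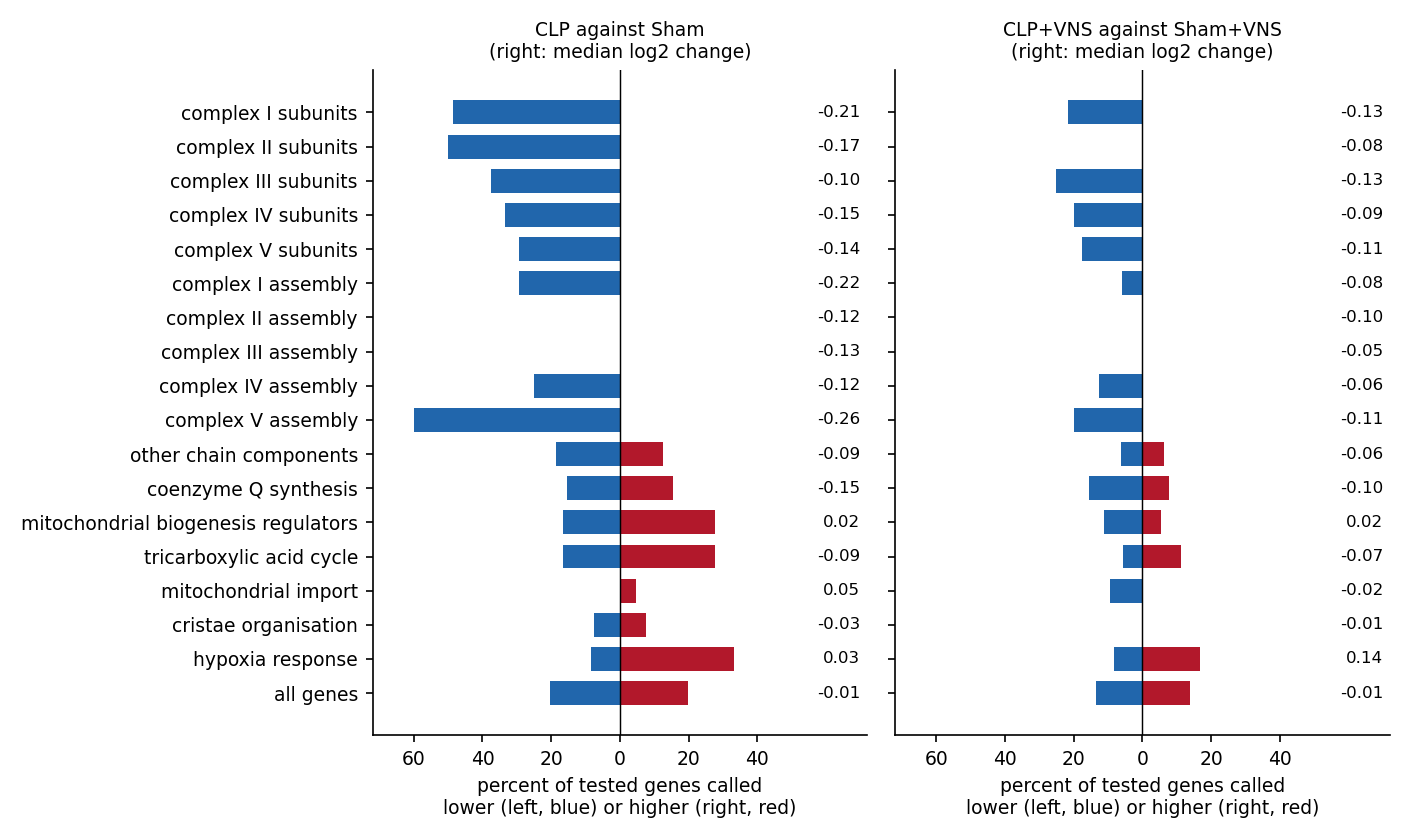
Percent of tested genes called lower (left of 0, blue) or higher (right of 0, red) in CLP against Sham and in CLP+VNS against Sham+VNS, for the subunits by complex, for related mitochondrial gene lists and for all genes, with the median log2 change at the right of each panel. Bars of subunits and assembly factors lie on the left side only, and all genes have bars of similar length on both sides. Assembly factors of complexes II and III have no bar in either panel. Complex II subunits have none in CLP+VNS against Sham+VNS.

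Leukocyte markers moved with the operation too. All 8 neutrophil markers rose in CLP against Sham, with a summed level of 2911 to 4745 CPM in CLP and 345 to 862 CPM in Sham, 4 of 5 macrophage markers rose (748 to 959 CPM in CLP, 367 to 479 CPM in Sham), and all 4 T cell markers fell (12.9 to 15.1 CPM in CLP, 27.5 to 42.4 CPM in Sham). Of 4 ciliated cell markers 1 fell, of 4 erythroid markers 1 fell, of 6 lung markers 2 rose and 1 fell, and of 2 tested skeletal muscle markers none was called. The part of these cell shifts in the lower subunit levels was not tested.

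The number of members that passed differed with the scaling and with the test. Scaled by total counts alone, 54 members fell, beside 25.4% of all genes lower, and limma on log2(TPM + 1), which changes the test and the unit as well as the scaling, called 61 lower, beside 28.5% of all genes. Over all genes the balance of calls moved as well: 2926 higher and 3029 lower with TMM scaling, 2341 higher and 3763 lower with total counts alone, and 1971 higher and 4218 lower with limma on TPM. No member rose in any of these 3.

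CLP+VNS set against Sham+VNS asked the same of the operation in stimulated rats. The groups compared share no library with those of the first comparison. Both comparisons came from the same fit of all 20 libraries, with a shared estimate of the spread. Subunit messages were again lower, in smaller number and size. Of 81 tested members 16 fell and none rose, 74 of 81 changes were negative, and the median was -0.11, against -0.00535 over all genes. The test called 27.3% of all genes and 13.4% lower, beside 19.8% of the members. The libraries of CLP+VNS lay below those of Sham+VNS without overlap for 10 of the 81 tested members, not far above the 9.24% of all genes. By complex 8 of 37 fell in complex I, 0 of 4 in complex II, 2 of 8 in complex III, 3 of 15 in complex IV and 3 of 17 in complex V.

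The members that fell in stimulated rats were largely those of the first comparison: 13 of the 16 were among the 33. Ndufa4l2 stood at 4.92, 9.54, 11.5, 10.1 and 11.5 CPM in CLP+VNS, against 18.6, 16.6, 23.6, 21.9 and 15.2 CPM in Sham+VNS. There was no overlap (-1.01 ± 0.21, adjusted p = 0.00131, edgeR). Ndufs3 stood at 22.7, 23.3, 24.1, 23.7 and 23.3 CPM in CLP+VNS, against 28.5, 28.1, 30.7, 28.8 and 28.0 CPM in Sham+VNS, which were tight and separate groups (-0.30 ± 0.06, adjusted p = 0.00160, edgeR). Ndufb8 (-0.31 ± 0.07), Ndufs8 (-0.24 ± 0.07), Ndufb10 (-0.24 ± 0.07), Cox6b2 (-1.25 ± 0.30) and Atp5f1c (-0.20 ± 0.06) also fell without overlap.

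The 3 members called only here were Ndufb6 (-0.27 ± 0.08) and Ndufc2 (-0.26 ± 0.07) of complex I and the hinge protein Uqcrh of complex III (-0.20 ± 0.07). Sdhc, which fell clearly without stimulation, was at 63.6 to 67.7 CPM in CLP+VNS, against 64.5 to 73.2 CPM in Sham+VNS (-0.08 ± 0.05, not called). Pericyte and smooth muscle markers summed to 349 to 515 CPM in CLP+VNS and 528 to 561 CPM in Sham+VNS, with 3 of 8 lower and a median of -0.24, and Cox4i2 was not called (-0.30 ± 0.17).

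This comparison leaned on Sham+VNS replicate 4. Without it 9 members fell, or 11.1% of them beside 11.0% of all genes, and the median was -0.0849, so the share was then that of all genes. The calls lost were those of Ndufa9, Uqcr10, Uqcrh, Cox8b, Cox8a, Atp5mc2 and Atp5f1d. Cox8b stood at 0.149, 0.502, 0.216, 0.214 and 0.281 CPM in CLP+VNS, against 0.914, 0.696, 1.17, 3.57 and 0.845 CPM in Sham+VNS, where replicate 4 was highest. Its log2 change was -2.36 ± 0.68 with that library (adjusted p = 0.0134, edgeR) and -1.70 without it (adjusted p = 0.0652, edgeR). Ndufa9 was also lost without Sham+VNS replicate 1, Uqcrh without CLP+VNS replicates 8 or 11 or Sham+VNS replicates 1, 3 or 5, and Cox8a without CLP+VNS replicates 3, 5, 8 or 11 or Sham+VNS replicates 2 or 3. Atp5mc2 was also lost without CLP+VNS replicates 1, 3, 8 or 11 or Sham+VNS replicate 3, and Atp5f1d without CLP+VNS replicates 3, 8 or 11 or Sham+VNS replicates 3 or 5.

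In the related lists, the regulator Nrf1 fell in CLP+VNS against Sham+VNS (-0.18 ± 0.04, adjusted p = 0.00622, edgeR), Ppargc1a fell (-0.39 ± 0.12, not called without Sham+VNS replicate 4) and Esrra rose (0.18 ± 0.06, not called without CLP+VNS replicates 1 or 11 or Sham+VNS replicates 1, 2 or 5). Of the assembly factors Ndufaf3 (-0.27 ± 0.08), Atpaf1 (-0.33 ± 0.07) and Cox19 (-0.27 ± 0.08) fell again. Coa3 and Coa5 fell too, but were called in 5 and 13 of the 20 fits without 1 library and not without Sham+VNS replicate 4. Nnt fell (-0.40 ± 0.09) and Slc25a5 rose (0.14 ± 0.04), both as in the first comparison, and Bnip3 rose (1.07 ± 0.21).

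Stimulation itself changed no member by this test. In CLP+VNS against CLP none of 81 members was called, with edgeR or DESeq2, and 3 had an unadjusted p below 0.05, Uqcr10, Ndufs4 and Ndufa4l2. The test called 0.0270% of all genes, 4 genes in number and all lower. That number was not stable: DESeq2 called 55 genes higher and 89 lower, and edgeR without CLP+VNS replicate 1 called 128 higher and 149 lower, again with no member among them. The median change of members was 0.00171 on the log2 scale, and the group sums of 18529 and 18493 TPM were within 1 SD of each other. Ndufa4l2 averaged 9.53 ± 2.72 CPM in CLP+VNS and 6.86 ± 1.32 CPM in CLP (SD, n = 5 each), a log2 change of 0.47 ± 0.22 (adjusted p = 0.368, edgeR). Most members had an SE near 0.07 on this scale, so shifts of that size could not be seen. With adjustment over all genes a call needs a change of several SE. Shifts well above 0.07 could therefore also go uncalled.

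In Sham+VNS against Sham none was called either, by edgeR or DESeq2, and 3 had an unadjusted p below 0.05, Sdhc, Uqcrq and Ndufa2, all lower. The test called 0% of all genes, and DESeq2 called 1 gene higher and 5 lower. The median was -0.0677 with all libraries and -0.0105 without Sham replicate 1, and 66 of 81 changes were negative with it and 45 of 81 without it. The highest level in Sham was that of replicate 1 in all 5 complexes.

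Whether the operation acted differently with and without stimulation was tested as an interaction. It called none of the 81 members, by edgeR or DESeq2, and 0% of all genes by edgeR, where DESeq2 called 2 higher and 4 lower. An unadjusted p below 0.05 was found for 2 members, Sdhc (0.20 ± 0.07, adjusted p = 0.514, edgeR) and Ndufa11 (0.28 ± 0.11, adjusted p = 0.550, edgeR). The members named in these last 3 comparisons were picked after their values were seen. With no interaction called, the counts of 16 falls in stimulated and 33 in unstimulated rats are not shown to differ.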

How the data were processed

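RNA of 20 rat lung samples was sequenced from poly(A)-selected, strand-specific libraries, per the labels' protocols. The authors deposited, per gene and library, expected counts (estimated counts, 91.5% of them whole numbers), FPKM values and TPM values scaled for length and depth, and a normalized signal whose making the sources do not describe. Per the submitters' processing notes the build was mRatBN7.2; the sources used here name no aligner or counting program. Group averages, FPKM, signal and the transcript table were not used.

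Counts were rounded to whole numbers and fitted with edgeR 4.0.16 in R 4.3.3 (TMM scaling, filterByExpr with a minimum count of 10, robust quasi-likelihood, 4 group means over 20 libraries, 16 residual degrees of freedom and a common BCV of 0.161), which tested 14794 genes two-sided with Benjamini-Hochberg adjustment. Fold changes are estimates ± SE. CPM use TMM-scaled totals. The interaction is the stimulation effect after CLP minus that after sham surgery. The alternatives used RLE factors, total counts alone, other count filters, DESeq2 1.42.0, limma 3.58.1 on log2(TPM + 1), the replicate number as a block, only the groups compared, and each library left out. Leaving out both libraries with Ucp1 was chosen after seeing the data. The fit was tested on simulated counts.

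Named members are the core subunits, the isoform pairs and Atp5if1, and per complex up to 4 called members at each end among those with a mean of at least 1 CPM; others are named for a stated count, lost call or overlap and were chosen after their values were seen. The results of some genes are not reported here, though counts include them. Of each related list up to 3 called genes at each end are named. Members and lists were chosen with earlier results of these data known. All 86 identifiers were found in the GRCr8 table, which types 3 as pseudogenes; its coordinates are used for promoter sequences only and are not those of the build of the counts.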

Additional observations from a re-analysis of the deposited data

Results flagged for a closer look

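Of 200 sets of 1 member or complex in 1 group, 21 held a library far from the other 4 (gap to the nearest library over the group's range above 0.71); chance flags about 1 in 20 sets, and several sets here share a library. Sham replicate 1 was high for 9 members: Atp5f1b at 824 CPM, Cox4i1 at 261 CPM, Atp5f1c at 134 CPM, Atp5mc3 at 125 CPM, Uqcrfs1 at 108 CPM, Ndufv1 at 91.9 CPM, Cox5a at 66.5 CPM, Cox8b at 4.66 CPM and Cox6a2 at 3.03 CPM. Sham+VNS replicate 4 was high for 5: Ndufs1 at 80.1 CPM, Atp5po at 70.7 CPM, Cox5b at 44.1 CPM, Cox7b at 40.1 CPM and Cox8b at 3.57 CPM. These are the libraries with Ucp1, and the part of adipose or heart tissue in these values was not tested.

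CLP+VNS replicate 11 was low for Cox4i1 at 195 CPM, Uqcrc2 at 116 CPM and Ndufs8 at 20.1 CPM. Ndufv2 was high at 58.7 CPM in CLP replicate 4. Sdhc was high at 67.7 CPM in CLP+VNS replicate 3 and at 64.4 CPM in CLP replicate 1. Uqcrh was low at 41.7 CPM in Sham+VNS replicate 2.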

How the results depend on the processing

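In CLP against Sham the count of members called, 33, ranged from 25 to 47 when single libraries were left out, was 54 with total counts alone and 61 with limma on log2(TPM + 1). In CLP+VNS against Sham+VNS the count of 16 ranged from 9 (without Sham+VNS replicate 4) to 19, was 28 with limma on log2(TPM + 1) and 6 with the replicate number as a block, all 6 among the 16. The limma alternative changes test, unit and scaling together; the cause of these moves was not tested. Under RLE factors, other filters, DESeq2 and fits of only the groups compared, both counts stayed within 1.5 times. Without both Ucp1 libraries they were 24 and 13, of which 23 and 12 were among the 33 and the 16. In both comparisons 1 member was then called higher. In CLP+VNS against Sham+VNS 1 was also called higher with only these groups fitted and without Sham replicate 1. The other 3 comparisons gave 0 members called, by edgeR, DESeq2 and limma, under every alternative run; a fit of only the groups compared was not run for the interaction, which uses all 4. No named member reversed with a call. Equal replicate numbers were not shown to pair samples: over 22 same-numbered pairs the correlation of deviations ran from -0.163 to 0.178, 3 were above 0.1, and 4 of 17 libraries correlated best with a library of their own number. With that block CLP against Sham had 28 members called. Depth limits Cox8b, Cox6b2, Ndufa10l1 and Cox7a2l2, at or below a few CPM.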
